A study of Mus musculus with 14 samples.

Results

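The comparison of ETS1 with CTCF in wild-type Th1 cells rests on 4 of the 14 libraries of the series, 2 for each antibody. Th1 cells are the helper T cells that direct responses to intracellular microbes. The peaks of both libraries of an antibody were merged, and a region was kept where both libraries had a peak. This left 9312 ETS1 regions of 27879 merged ones, and 26438 CTCF regions of 37630. An ETS1 region and a CTCF region that shared at least 1 bp were called co-occupied, and a region sharing none was called ETS1 alone or CTCF alone. The classes held 6602 ETS1 regions that overlapped 6654 CTCF regions, 2710 ETS1-alone regions and 19784 CTCF-alone regions, together 29071 joined regions.

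All 4 libraries came from spleen of C57BL/6J mice, without a mutant allele in the labels. Naive CD4 T cells were stimulated through CD3 and CD28 and kept for 6 days under Th1 conditions, in medium with IL-12 at 10 ng/mL and IL-2 at 1 ng/mL. CUT&RUN was used, in which an antibody directs a nuclease that cuts out the DNA around its target. The titles describe each antibody's pair of libraries as technical replicates of 1 biological replicate, so the spread between them is not that between mice. The deposited names of the CTCF lists number those libraries as different wild-type samples, and the lists of the antibodies carry different run numbers, so antibody and run cannot be told apart. The control antibody IgG gave 2 peaks in wild-type cells and 285 in cells of the strain labelled Ets1-SE-KO.

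ETS1 belongs to the ETS family of transcription factors, which recognise a GGAA core, often in promoters. It is abundant in lymphocytes and takes part in T cell development and in the expression of cytokine genes. CTCF is a zinc-finger protein that stops the cohesin complex as it extrudes chromatin loops, and its sites are found at the borders of loops and domains, at insulators and at many promoters. A promoter can hold both proteins, next to one another or on different molecules of the cell population. Peak lists of separate libraries show the positions called for each antibody, not that both proteins sat on a single DNA molecule.

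Promoter windows that strong regions overlap are printed as examples, and a window can cover only part of a region. A window was sorted by the regions that overlap the window itself, so its class can differ from that of a whole region. The RefSeq promoter table of GRCm38.p6 gives windows from 250 bases before to 50 after a transcription start, and 21262 windows of 17491 protein-coding genes matched genes of the analysis. Letters are lower case, 5′ to 3′ on the gene's strand, and capitals mark matches on either strand to CCGGAAG, an ETS core with its flank, or AGGNGGC, a part of the CTCF motif. A match in reverse orientation reads CTTCCGG or GCCNCCT. Pex7 (chr10:19907625-19907924, minus strand) encodes a receptor for import into peroxisomes, and its promoter was among the best-ranked in regions of both antibodies. Pts (chr9:50528607-50528906, minus strand), an enzyme of tetrahydrobiopterin synthesis, was the first promoter of that class to hold both motifs. Polr1b (chr2:129100746-129101045, plus strand), a subunit of RNA polymerase I, and Rnpc3 (chr3:113630100-113630399, minus strand), a protein of the minor spliceosome, led the promoter windows with ETS1 alone. The whole ETS1 region at Rnpc3, at ranks of 99.7 and 99.9, was not in the ETS1-alone class of regions. Akt1s1 (chr7:44850122-44850421, plus strand), a regulator of mTORC1, held both motifs and yet had an ETS1 region alone. Grik4 (chr9:42944322-42944621, minus strand), a glutamate receptor subunit, and Rsad1 (chr11:94549158-94549457, minus strand) led those with CTCF alone. Pts and Akt1s1 were picked for their motifs after the sequences had been searched.
Pex7: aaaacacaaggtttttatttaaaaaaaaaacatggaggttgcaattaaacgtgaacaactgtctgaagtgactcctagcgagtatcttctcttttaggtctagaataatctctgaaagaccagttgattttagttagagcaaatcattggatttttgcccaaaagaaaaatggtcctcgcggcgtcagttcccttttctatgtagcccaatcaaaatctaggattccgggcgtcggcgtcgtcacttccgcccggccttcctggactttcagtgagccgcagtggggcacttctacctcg
Pts: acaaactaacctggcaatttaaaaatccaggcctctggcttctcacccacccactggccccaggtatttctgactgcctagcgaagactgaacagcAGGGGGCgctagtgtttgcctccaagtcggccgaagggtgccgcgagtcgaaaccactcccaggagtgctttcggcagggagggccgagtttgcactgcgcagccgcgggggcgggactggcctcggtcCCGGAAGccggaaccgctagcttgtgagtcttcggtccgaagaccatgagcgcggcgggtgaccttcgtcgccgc
Polr1b: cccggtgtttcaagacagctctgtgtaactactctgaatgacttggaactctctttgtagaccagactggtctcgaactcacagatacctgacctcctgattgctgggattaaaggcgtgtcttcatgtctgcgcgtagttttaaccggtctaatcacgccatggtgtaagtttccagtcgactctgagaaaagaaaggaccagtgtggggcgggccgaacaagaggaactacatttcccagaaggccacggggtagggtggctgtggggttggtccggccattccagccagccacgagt
Rnpc3: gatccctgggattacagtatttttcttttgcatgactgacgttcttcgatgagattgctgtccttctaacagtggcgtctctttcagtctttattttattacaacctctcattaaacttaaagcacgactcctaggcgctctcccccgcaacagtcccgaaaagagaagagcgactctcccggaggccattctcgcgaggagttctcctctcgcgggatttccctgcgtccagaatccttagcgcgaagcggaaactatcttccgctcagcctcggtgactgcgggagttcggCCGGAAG
Akt1s1: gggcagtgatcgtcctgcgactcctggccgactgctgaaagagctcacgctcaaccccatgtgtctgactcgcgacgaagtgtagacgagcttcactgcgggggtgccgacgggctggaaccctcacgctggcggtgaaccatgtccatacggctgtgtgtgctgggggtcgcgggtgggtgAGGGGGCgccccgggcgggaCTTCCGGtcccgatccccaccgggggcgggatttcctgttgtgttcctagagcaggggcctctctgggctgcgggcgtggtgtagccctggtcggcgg
Grik4: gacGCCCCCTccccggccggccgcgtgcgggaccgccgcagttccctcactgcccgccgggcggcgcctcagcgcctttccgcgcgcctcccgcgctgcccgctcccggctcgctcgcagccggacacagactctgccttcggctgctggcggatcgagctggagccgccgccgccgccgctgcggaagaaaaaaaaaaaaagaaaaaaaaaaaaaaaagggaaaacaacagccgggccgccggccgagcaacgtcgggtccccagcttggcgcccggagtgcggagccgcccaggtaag
Rsad1: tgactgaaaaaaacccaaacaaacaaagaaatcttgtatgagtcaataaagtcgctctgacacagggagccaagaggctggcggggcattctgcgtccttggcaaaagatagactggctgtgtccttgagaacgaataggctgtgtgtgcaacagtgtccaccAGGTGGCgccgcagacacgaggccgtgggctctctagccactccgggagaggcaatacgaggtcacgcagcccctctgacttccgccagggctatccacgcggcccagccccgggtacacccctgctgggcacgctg

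Not every printed window held the letters searched. Neither motif was in the windows of Pex7 and Polr1b. These windows covered only part of the ETS1 regions there (chr10:19907435-19907665 and chr2:129100949-129101415), and the rest was not searched. Counted from 1 at the 5′ end, CCGGAAG began at position 226 in Pts and 294 in Rnpc3, and its reverse at 203 in Akt1s1. AGGNGGC began at 97 in Pts, 183 in Akt1s1 and 164 in Rsad1, and its reverse at 4 in Grik4. An absent match says that these letters are not in the window and says nothing of the factor.

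Over all 21262 windows, 5153 (24.2%) lay under regions of both antibodies, 1914 under ETS1 alone, 1744 under CTCF alone and 12451 under neither. CCGGAAG was in 22.9% of windows with both, 24.7% with ETS1 alone, 11.1% with CTCF alone and 4.89% with neither, beside 11.6% of all windows. AGGNGGC was in 46.5%, 35.3%, 46.9% and 26.2%, beside 33.6% of all. The ETS letters were thus more frequent where ETS1 was called, with or without CTCF, and the CTCF letters where CTCF was called. The classes also differed in base composition, with a median of 25 CpG per window for both antibodies, 21 for ETS1 alone, 20 for CTCF alone and 5 for neither. Among windows with 20 to 29 CpG, CCGGAAG was in 27.9% with both, 30.4% with ETS1 alone, 13.9% with CTCF alone and 12.5% with neither. In the same band AGGNGGC was in 47.5%, 36.8%, 48.8% and 45.3%. In that band the ETS letters still separated windows with ETS1 from those without, while the CTCF letters were near as frequent in empty windows as in CTCF-alone windows. With 0 to 9 CpG, AGGNGGC was in 37.9% of windows with CTCF alone and 18.2% of those with neither, and with 30 or more in 55.9% and 56.8%. Windows are not replicates, none of those used was on chromosome 18, and these shares were not tested.

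The numbers of peaks differed between the antibodies and between the ETS1 libraries. ETS1 gave 14013 peaks in library 1 and 23419 in library 2, and CTCF gave 33144 and 31368. ETS1 peaks covered 7.31 Mb and 13.7 Mb, and CTCF peaks 18.4 Mb and 17.4 Mb. Of the ETS1 peaks, 67.8% of library 1 and 40.0% of library 2 lay in regions of both libraries, against 80.3% and 85.1% for CTCF. The CTCF lists agreed better with each other than the ETS1 lists did. The lists carry no read counts, so the depth behind them is unknown, and deeper sequencing or a cleaner background lengthens a list.

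Most ETS1 regions were co-occupied, 6602 of 9312 (70.9%), while most CTCF regions were not, 6654 of 26438 (25.2%). These shares depended on where the lists ended. In each list a peak carries the authors' −log10 q in column 9, with medians of 1.66 and 1.70 in the ETS1 libraries and 3.24 and 3.10 in the CTCF libraries. With peaks of at least 5 on that scale for both antibodies, 322 of 1181 ETS1 regions (27.3%) were co-occupied. When the stricter limit was set for ETS1 alone the share was 83.9%, and when it was set for CTCF alone it was 15.7%. With the 14013 top-ranked peaks of each library, 2131 of 8296 ETS1 regions (25.7%) and 18.4% of 11511 CTCF regions were co-occupied. With all ETS1 peaks, the stricter limit on CTCF left 1466 of the 6602 co-occupied ETS1 regions, so most of the overlap lay with CTCF peaks under that limit.

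**Figure D1:**
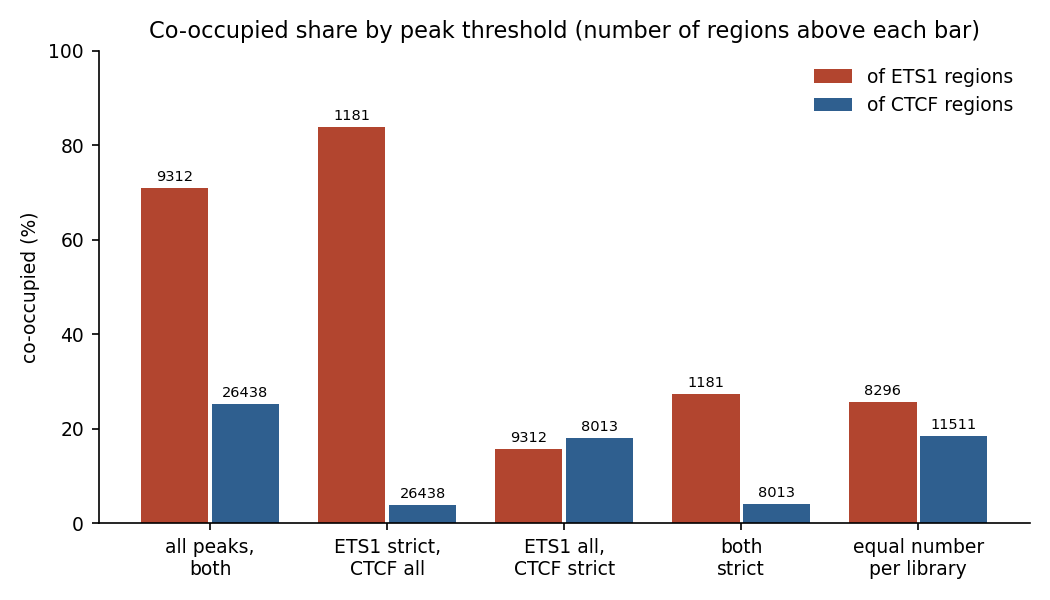
Share of ETS1 regions (red) and CTCF regions (blue) that were co-occupied, in percent, under 5 choices of peaks, with the number of regions above each bar. Strict means column 9 of at least 5, and equal number means the 14013 top-ranked peaks of each library; the ETS1 share is 70.9% with all peaks and 25.7% with equal numbers.

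The class of ETS1 alone was also the less settled one. Of its 2710 regions, 1295 (47.8%) had a CTCF peak in at least 1 of the wild-type libraries, which leaves 1415 without any. With a single ETS1 library in place of both, ETS1 alone held 13719 regions from library 2 or 6730 from library 1. Of the CTCF-alone regions, 3565 had an ETS1 peak in at least 1 library. The CTCF libraries of Ets1-SE-KO cells, not used to form the classes and with longer lists of 40502 and 39345 peaks, had a peak in 74.4% and 69.1% of the ETS1-alone regions. They had one in 99.6% and 99.2% of the ETS1 co-occupied regions. The ETS1 libraries of those cells, with 40705 and 9344 peaks, had a peak in 96.0% and 78.1% of co-occupied regions and in 81.0% and 55.6% of ETS1-alone regions. In these other libraries, too, ETS1 was called more often in the co-occupied regions. Those regions also ranked higher for ETS1 and were wider in wild type, and the part of rank and width was not tested. CTCF was called again in 99.6% and 99.2% of its co-occupied regions and in 97.2% and 96.5% of those alone, while ETS1 was called in 20.7% and 4.80% of the CTCF-alone regions. These libraries differ from wild type in genotype as well as in length of list.

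ETS1 regions were mostly at gene ends, and CTCF regions mostly were not. A midpoint within 2 kb of either end of a protein-coding gene counted as a gene end, since the gene table gives the outermost ends without strand, so starts inside a gene count as gene body. Per library, 55.1% and 44.1% of ETS1 peaks and 31.4% and 33.4% of CTCF peaks lay at gene ends. The groups did not overlap, with means of 49.6% ± 7.80 and 32.4% ± 1.42 (SD, n = 2 each) and a difference of 17.3 percentage points. An exact two-sided permutation test gave p = 0.333, the smallest that 2 libraries against 2 allow. Among regions of both libraries, 77.1% of the co-occupied, 61.5% of ETS1 alone and 19.3% of CTCF alone were at gene ends. CTCF-alone regions were in gene bodies (40.4%) and between genes (40.3%), against 15.6% and 7.29% of the ETS1 co-occupied and 26.3% and 12.2% of ETS1 alone. With equal numbers of peaks, gene ends held 77.9% of co-occupied regions, 74.7% of ETS1 alone and 18.4% of CTCF alone. At column 9 of at least 5 the first 2 shares were 83.2% and 88.9%, so the order of the ETS1 classes turned, while CTCF alone stayed lowest. The gene-end difference per library was 26.9 points with equal numbers and 55.9 points at that limit (exact permutation test, p = 0.333 for each).

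The acetylated histone mark H3K27ac, found at active promoters and enhancers, followed the same order. The 19285 H3K27ac regions called in both wild-type libraries overlapped 89.4% of ETS1 co-occupied regions, 74.6% of ETS1 alone and 12.8% of CTCF alone. Within gene ends, 81.3% of 5817 CTCF regions with H3K27ac were co-occupied, against 12.9% of 3133 without it. Away from gene ends these shares were 45.8% of 2648 and 2.08% of 14840. ETS1 regions differed less by this split, with 77.9% co-occupied at acetylated gene ends and 53.9% at the others. CTCF regions that shared DNA with ETS1 were therefore mainly those in acetylated chromatin, at gene ends or away from them.

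**Figure D2:**
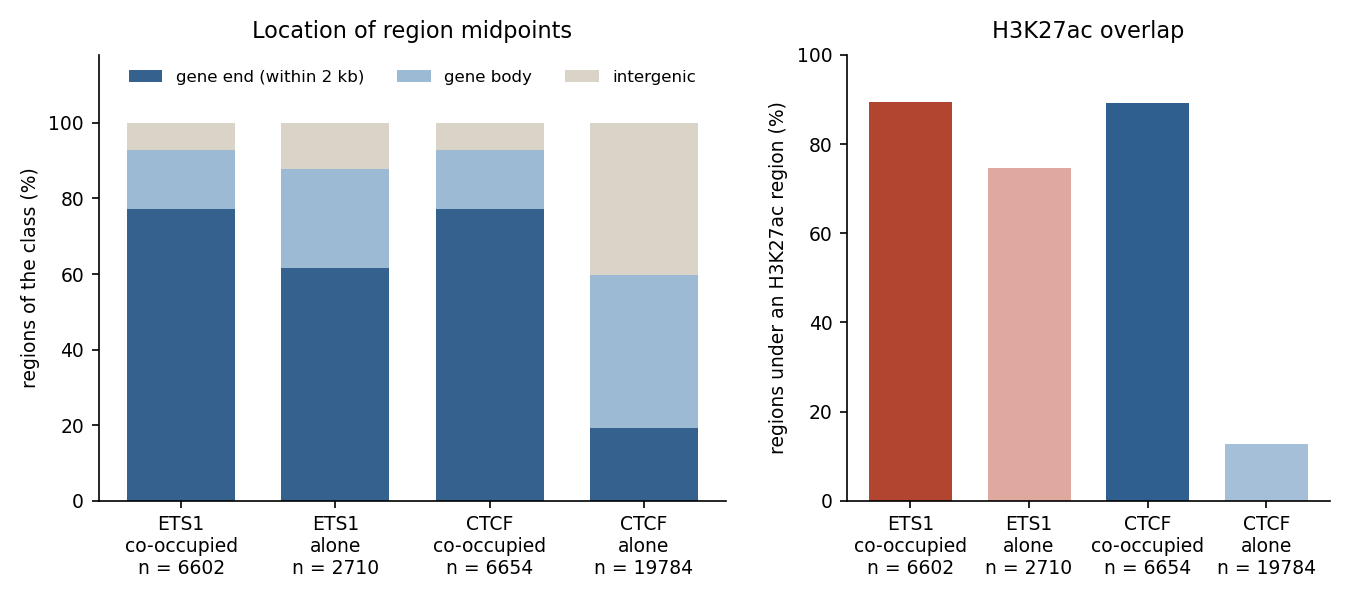
Left, location of region midpoints as a percentage of each class, with gene ends in dark blue, gene bodies in light blue and intergenic sequence in grey; right, percentage of each class under an H3K27ac region of both wild-type libraries. CTCF alone stands apart in both panels, with 19.3% at gene ends and 12.8% acetylated.

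Rank of a peak was its percentile by column 9 within its own list, 100 being the strongest. ETS1 regions with CTCF ranked higher than those without, with medians of 69.0 and 53.4 in library 1 and of 80.0 and 67.1 in library 2. The differences were 15.5 and 12.9 percentile points. CTCF regions with ETS1 ranked lower than those without, with medians of 50.8 and 62.3 in library 1 and of 49.9 and 59.8 in library 2, differences of -11.4 and -9.88. The median fold over background in the authors' lists moved alike, at 3.83 and 4.04 for ETS1 with CTCF, 3.54 and 3.66 without, 3.76 in both libraries for CTCF with ETS1, and 4.74 and 4.61 without. Both libraries of each antibody gave the same direction. With 2 libraries an antibody no test was run. The mean CTCF difference of -10.7 became -3.98 with equal numbers of peaks and 0.725, with the sign turned, at column 9 of at least 5. The SD between the CTCF libraries was 4.40 at that limit, so the 0.725 lay within their spread. The mean ETS1 difference went from 14.2 to 11.7 and 4.83. With 1 library of an antibody standing for both, the ETS1 difference was 36.4 without library 1 and 32.8 without library 2, and the CTCF difference -5.71 without library 1 and -3.92 without library 2.

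Across the range of ranks the ETS1 share climbed steadily. With ETS1 regions split into 10 equal bins by rank, from the weakest to the strongest, the co-occupied share went from 51.5% to 82.2% in library 1 and from 48.2% to 83.6% in library 2. For CTCF it was 33.6% in the weakest bin and 19.2% in the strongest in library 1. In library 2 it was 27.5% and 19.3%, with the highest value, 32.4%, in bin 3. The share at gene ends went with it, from 53.1% to 87.2% for ETS1 and from 42.2% to 28.7% for CTCF in library 1.

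**Figure D3:**
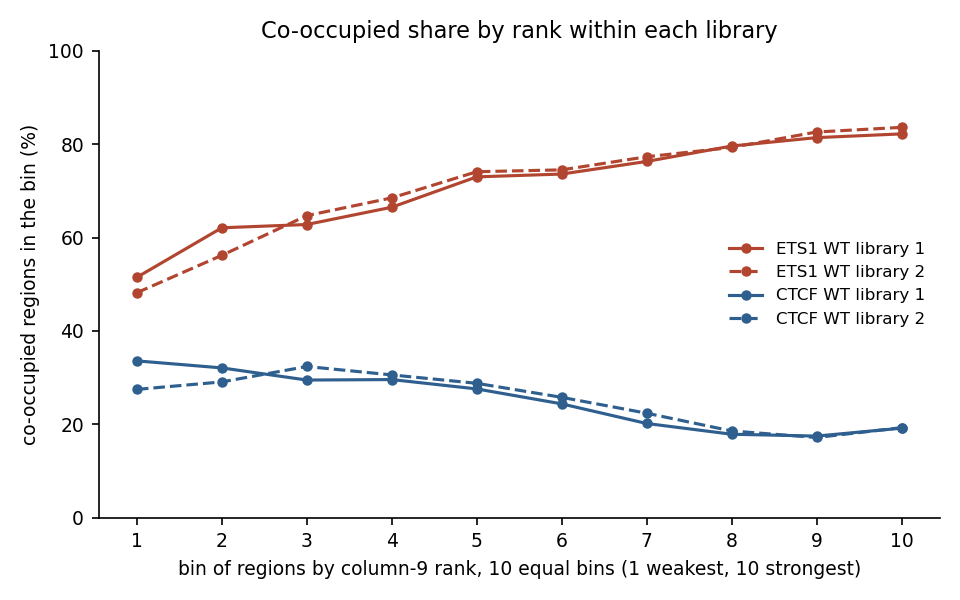
Co-occupied share in percent (vertical axis) by bin of regions ranked on column 9 within a library, from weakest (1) to strongest (10), for ETS1 (red) and CTCF (blue) library 1 (solid) and library 2 (dashed). The ETS1 lines climb from about the middle of the axis to 82.2% and 83.6%, and the CTCF lines end at 19.2% and 19.3%.

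Within acetylated chromatin the CTCF difference had the other sign. CTCF regions under H3K27ac ranked 7.16 and 7.84 points higher with ETS1 than without, and those outside H3K27ac differed by -10.9 and -9.92 points. The CTCF-alone regions outside H3K27ac, 17260 of 19784, had medians of 64.3 and 62.1, against 43.4 and 41.8 for the 2524 under it. ETS1 regions kept their direction in both settings, with 12.5 and 10.6 points under H3K27ac and 8.79 and 10.8 outside it. Between genes and without H3K27ac, 116 CTCF regions with ETS1 ranked at 69.2 and 72.1, against 66.4 and 64.4 for 7387 without. The lower rank of co-occupied CTCF regions as a whole was thus not found inside the acetylated set.

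**Figure D4:**
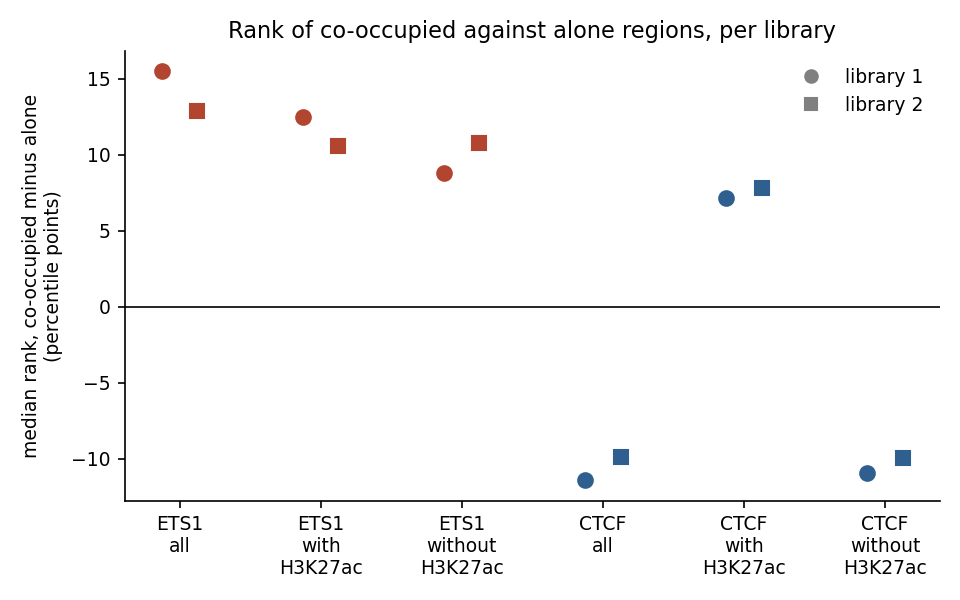
Median column-9 rank of co-occupied minus alone regions in percentile points, for ETS1 (red) and CTCF (blue), over all regions and split by overlap with H3K27ac; circles are library 1 and squares library 2. All ETS1 points lie above 0, while CTCF points are above 0 under H3K27ac and below it otherwise.

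Per library, the median peak width was 408 and 439 bp for ETS1 and 432 and 431 bp for CTCF, so the ranges overlapped. The difference was -8.00 bp (exact two-sided permutation test, p = 1.00), and it turned to 7.50 bp without ETS1 library 1 and to 63.5 bp at column 9 of at least 5. With equal numbers of peaks it was -69.0 bp. Merged regions were wider where co-occupied, with medians of 911 bp for ETS1 with CTCF and 707 bp alone, and of 758 bp for CTCF with ETS1 and 539 bp alone. Width moved with co-occupancy, and its part in the overlap was not tested. The 6679 overlapping pairs lay close: they shared a median of 608 bp, their midpoints were a median of 126 bp apart, and 89.7% had midpoints within 500 bp. The ETS1 region was the wider in 61.1% of pairs. ETS1-alone regions were a median of 15614 bp from the nearest CTCF region and CTCF-alone regions 42865 bp from the nearest ETS1 region. Few of them, 7.82% and 2.81%, had the other antibody within 2 kb.

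Co-occupied shares of ETS1 regions ran from 64.7% on chromosome 13 to 77.9% on chromosome 8 among autosomes. On chromosome X it was 97 of 180 (53.9%), below every autosome. Chromosome X carried 44.2 ETS1 regions per 100 CTCF regions, against 31.1 to 39.4 on the autosomes. Chromosome Y had 4 CTCF regions and none of ETS1.

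Of the 8 best-ranked co-occupied regions, 5 were at gene ends, 2 in gene bodies and 1 between genes. The region at Pex7 (chr10:19907435-19907665) was number 140 and 24 in the ETS1 lists and 17 and 10 in the CTCF lists. Zfp809, a repressor of retroviral sequences, Def8 and a region 38396 bp from Csf2ra also ranked in the first 8, but each lay under an IgG peak of Ets1-SE-KO cells. Zfp619, Afmid, an enzyme of tryptophan breakdown, and Rnf14, a ubiquitin ligase, were also among them. IgG peaks overlapped 160 of all 6602 co-occupied ETS1 regions and 14 of the 2710 alone. The widest co-occupied ETS1 regions were at Nr4a3, an orphan nuclear receptor induced by T cell receptor signals (5754 bp), Fmnl1, a formin (5340 bp), Plec (5258 bp) and Ppp1r18 (5078 bp).

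The 8 best-ranked ETS1-alone regions were all at gene ends. The region at Polr1b (chr2:129100949-129101415) was number 1 and 9 in the ETS1 lists, with an authors' fold of 12.6 and 10.0. The region of Crnkl1, a splicing factor, and Cfap61, whose windows overlap on opposite strands, was number 7 and 86. Others were at Hsph1, a chaperone (number 44 and 50), Pidd1, on the promoter window of Rplp2 (52 and 46), Akt1s1 (63 and 103), C9orf72 (25 and 109) and Cwc22, a splicing factor (69 and 99). All 8 best-ranked ETS1-alone regions were called in both ETS1 libraries of Ets1-SE-KO cells, 7 of the 8 lay under H3K27ac, and none lay under an IgG peak. The widest were in Zbtb7b, which encodes the CD4-lineage factor ThPOK (4997 bp), and at Ptbp1, a splicing regulator (4582 bp), Akna (4555 bp) and Gm46294 (3946 bp).

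CTCF-alone regions led by rank lay mostly outside gene ends. The first in both lists, on chromosome 2 (chr2:98666583-98667293), was 1035266 bp from its nearest gene Lrrc4c, lay under an IgG peak and had an authors' fold of 1.58 and 1.40, the lowest of the 8. The next, 2715 bp from Dnase1l3, was number 3 and 6 with a fold of 10.7 and 9.56. Regions at Meak7 (number 12 and 21) and Mmp28, a metalloproteinase (7 and 29), were at gene ends. Those nearest to Gtpbp4, Olfr545, Dntt and Mtap were 15822, 18430, 13078 and 7741 bp away. The widest were 14477 bp on chromosome Y, 5320 bp near the imprinted gene Cdkn1c, 5176 bp near Tmem121 and 5022 bp near Slain1.

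Genes were sorted by the regions within 2 kb of either end, so a gene with neither can still hold regions elsewhere in its body. Of 21883 protein-coding genes, 6421 (29.3%) had both antibodies, 1649 (7.54%) ETS1 alone, 3005 (13.7%) CTCF alone and 10808 (49.4%) neither. These percentages are the background for each list. A CTCF region was at 79.6% of the genes with ETS1 and at 21.8% of those without. Among the 9527 genes with H3K27ac at an end these shares were 81.2% and 54.2%, and among the other 12356 they were 61.5% and 15.8%. The gap was narrower among acetylated genes and did not close. With equal numbers of peaks, 2461 genes (11.2%) had both, 5128 (23.4%) ETS1 alone and 1563 (7.14%) CTCF alone, so which gene counts as ETS1 alone depended on the list length.

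With all peaks, ribosomal protein, proteasome and housekeeping genes had both antibodies more often than the 29.3% of all genes. Of 83 cytosolic ribosomal protein genes, 47 had both, 18 ETS1 alone, 8 CTCF alone and 10 neither. At Rpl7 the best ranks were 95.0 and 96.6 for ETS1 and 80.3 and 83.8 for CTCF. At Rps12 they were 55.2 and 56.6 for ETS1, with no CTCF peak. Of 78 mitochondrial ribosomal protein genes, 48 had both and 14 ETS1 alone, and of 39 proteasome subunit genes, 18 had both and 9 ETS1 alone. Other housekeeping genes gave 8 with both, 6 with ETS1 alone, 2 with CTCF alone and 2 with neither of 18. B2m, the light chain of MHC class I, had ETS1 ranks of 22.5 and 55.6 and no CTCF peak. H3K27ac was at an end of 77, 69, 33 and 16 genes of these lists, and of the 9527 genes with H3K27ac at an end 6001 had both antibodies; its part in the counts was not tested. With equal numbers of peaks, both antibodies were at 18 of 83, 18 of 78, 5 of 39 and 1 of 18, beside 11.2% of all genes, so the excess was lost for housekeeping genes and small for proteasome genes. ETS1 alone became the most frequent state in all 4 lists, at 43, 42, 22 and 13 genes.

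Developmental gene clusters showed the opposite. Of 39 Hox genes, which set position along the body axis, 17 had CTCF alone, 1, Hoxc9, ETS1 alone and 21 neither, and none had H3K27ac at an end. Hoxb8 had CTCF ranks of 84.0 and 87.4, and no ETS1 peak in either library. Neighbouring Hox genes share regions, as Hoxb7 has the same ranks, so the genes are not independent. Of 57 clustered protocadherin genes, cell-surface proteins of neurons whose promoters are classical CTCF sites, 11 had CTCF alone and 46 neither. Of 1106 olfactory receptor genes, 1 had both, 7 CTCF alone and 1098 neither. Of 24 imprinted genes, expressed from a single parental copy, 2 had both, 1 ETS1 alone, 5 CTCF alone and 16 neither. Peg10, derived from a retrotransposon, had CTCF ranks of 31.6 and 10.9 and an ETS1 peak in library 2 alone, at 67.1. Equal numbers of peaks left 12 of 39 Hox genes and 3 of 57 protocadherin genes with CTCF alone, beside 7.14% of all genes, and none with both. At that setting the Hox share was above that of all genes and the protocadherin share was not.

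**Figure D5:**
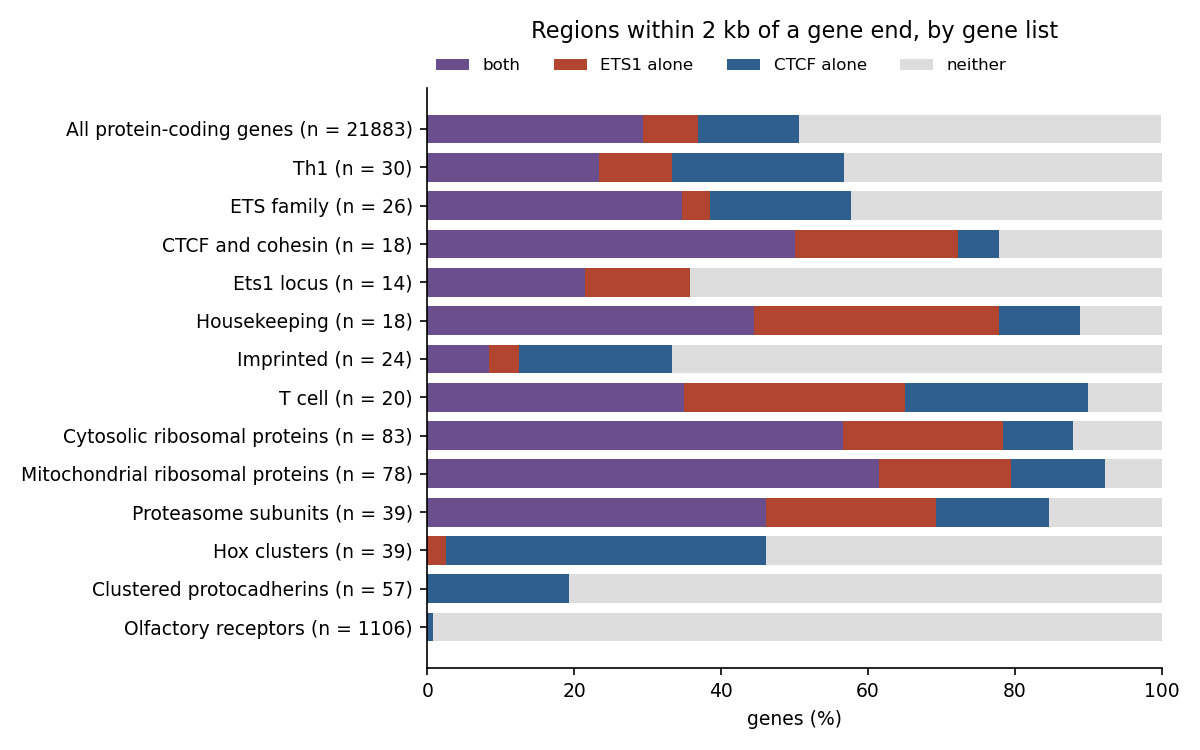
Percentage of the genes of each list with regions within 2 kb of an end from both antibodies (purple), ETS1 alone (red), CTCF alone (blue) or neither (grey), for the lists of at least 14 genes and for all 21883 protein-coding genes. Ribosomal and mitochondrial ribosomal protein genes have the most purple, and Hox and protocadherin genes have none.

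ETS1 regions were at 13 of 20 T cell genes, against 2 of 7 B cell, 1 of 7 myeloid, 2 of 5 erythroid, 1 of 9 non-haematopoietic and none of 5 CD8 T and NK cell genes, beside 36.9% of all genes. Of the genes with H3K27ac at an end 77.5% had ETS1, and 19 of the 20 T cell genes were among these, so the T cell list did not stand above acetylated genes. Of the 20 T cell genes, 7 had both antibodies, 6 ETS1 alone, 5 CTCF alone and 2 neither. Cd4, the co-receptor of these cells, had ETS1 ranks of 52.7 and 88.3 and CTCF ranks of 75.6 and 65.0. Lck, the kinase that starts T cell receptor signalling, had ETS1 ranks of 86.7 and 81.1 and CTCF ranks of 49.9 and 20.3. Cd3e, a chain of the T cell receptor complex, had ETS1 ranks of 88.2 and 70.0 and a CTCF peak in library 2 alone, at 9.25. Cd3d was similar, with 92.1 and 82.6 for ETS1 and 39.6 for CTCF in library 2 alone. Cd2, an adhesion receptor, had ETS1 ranks of 89.6 and 70.1 and no CTCF peak. Zap70, the kinase that acts after Lck, had CTCF ranks of 92.0 and 98.2 and an ETS1 peak in library 2 alone, at 62.2. Bcl11b, a factor of T cell commitment, had CTCF ranks of 46.0 and 65.2, and ETS1 in library 2 alone at 49.4. Several single-library peaks thus decided the state of a gene, and with equal numbers of peaks 11 of the 20 had ETS1 alone.

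Markers of other cells checked the label of the samples. H3K27ac was at an end of 2 of 7 B cell genes (Cd79a and Ebf1), 1 of 7 myeloid genes, 1 of 5 CD8 T and NK cell genes, 1 of 5 erythroid genes and none of 9 non-haematopoietic genes. Cd79a and Ebf1 had both antibodies, while Cd79b, Ms4a1 and Pax5 had neither. None of the 5 CD8 T and NK genes had a region of either antibody. Fewer cells of a type and less signal per cell cannot be told apart in bulk lists.

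Genes of the Th1 programme were spread over all states. Of 30, 7 had both antibodies, 3 ETS1 alone, 7 CTCF alone and 13 neither, and 23 had H3K27ac at an end. Tbx21, the gene of T-bet, which directs the Th1 fate, had ETS1 ranks of 71.7 and 16.9, and CTCF in library 2 alone at 0.628. Il12rb2, the inducible chain of the IL-12 receptor, had ETS1 ranks of 56.9 and 55.6 and no CTCF peak. Tnf had ETS1 ranks of 42.0 and 47.5 and no CTCF peak. Runx3, a partner of T-bet, had ETS1 ranks of 23.5 and 71.5 and CTCF ranks of 78.7 and 93.1. Eomes, a T-box factor, had CTCF ranks of 72.0 and 74.2 with no ETS1 peak. Ifng, the signature cytokine, had no ETS1 peak at its ends and a CTCF peak in library 2 alone, at 11.9. Stat4, Il18rap and Cxcr3 had no peak of either antibody at their ends. The share with both antibodies was 23.3%, beside 29.3% of all genes, and that with CTCF alone 23.3%, beside 13.7%. Of the 9527 genes with H3K27ac at an end, 77.5% had ETS1 and 6001 had both antibodies. ETS1 was at 10 of the 30 Th1 genes, beside 36.9% of all genes. These 10 were all among the 23 Th1 genes with H3K27ac, a share below the 77.5% of acetylated genes.

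The genes of the factors and their partners held every state. Of 18 CTCF and cohesin genes, 9 had both, 4 ETS1 alone, 1 CTCF alone and 4 neither. Ctcf had ETS1 ranks of 90.5 and 94.9 and CTCF ranks of 90.6 and 88.5. Smc3, a core subunit of cohesin, had ETS1 ranks of 97.3 and 95.1 and CTCF ranks of 95.3 and 81.5. Wapl, which releases cohesin, had 97.0 and 94.0 for ETS1 and 40.1 and 28.7 for CTCF. Mau2, of the cohesin loader, had 99.7 and 98.9 for ETS1 and no CTCF peak. Its partner Nipbl, with Rad21 and Stag1 of cohesin, had neither antibody at a gene end. Nipbl and Stag1 each had 1 co-occupied ETS1 region in the gene or within 10 kb of it, and Rad21 had none. Of 26 ETS family genes, 9 had both, 1 ETS1 alone, 5 CTCF alone and 11 neither, so the share with both (34.6%) was near the 29.3% of all genes. With equal numbers of peaks, 2 of the 26 ETS family genes and 5 of the 18 CTCF and cohesin genes had both, beside 11.2% of all genes. The ETS family share was then below that of all genes and the CTCF and cohesin share above it. Gabpa, the ETS factor of many housekeeping promoters, had ETS1 ranks of 96.8 and 97.1 and CTCF ranks of 56.2 and 60.9. Ets2 had 75.8 and 84.9, and 95.3 and 91.0. Spi1, the myeloid factor PU.1, had CTCF ranks of 46.8 and 55.4 and an ETS1 peak in library 2 alone, at 68.6. Of the 4 RUNX genes, Runx3 and Cbfb had both at their ends and Runx1 and Runx2 neither. Runx1 had 1 and Runx2 had 2 co-occupied ETS1 regions in the gene or within 10 kb of it.

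In the window over Fli1 and Ets1 on chromosome 9, 6 ETS1 regions and 14 CTCF regions were counted, and 2 of each were co-occupied. The wider co-occupied region lay in the body of Ets1 (chr9:32695703-32697919), with ETS1 ranks of 76.4 and 73.2 and, for the CTCF region inside it, of 70.4 and 82.1. The other was 41665 bp from the nearer outer end of Ets1 (chr9:32594490-32594662), with ETS1 ranks of 76.0 and 91.6 and CTCF ranks of 40.4 and 65.1. A further 3 ETS1 regions in Ets1 and 1 in Fli1 had no CTCF region, and 12 CTCF regions in and around Fli1 and Ets1 had no ETS1 region. All 6 ETS1 regions and 4 of these 12 CTCF regions lay under H3K27ac. Neither outer end of Ets1 had a region, so Ets1 counted as neither despite the regions in its body. That state does not cover starts inside the gene. Of the 14 genes of the neighbourhood, Zbtb44, Aplp2 and St14 had both, Fli1 and Nfrkb ETS1 alone, and 9 neither. At the ends of Fli1 only library 2 had ETS1 peaks, the best at rank 59.5. CTCF had a peak there in library 1 alone, at 0.594.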

How the data were processed

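CUT&RUN peak lists of 14 libraries were deposited, in 8 groups of antibody and genotype. The comparison used the 4 ETS1 and CTCF lists of wild-type cells, and the H3K27ac, IgG and Ets1-SE-KO lists beside them. Per the submitters' processing notes, BWA was the aligner and GRCm38 the build. For the peak caller, its version, options and any control library were not given in the sources used here. A list has 9 columns and no header: the authors' score, the authors' fold (a ratio over background), then the −log10 of p and of q, deposited as the authors' caller wrote them. Lists hold no counts, so depth is unknown. These values rank peaks within a list only.

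Regions, overlaps and ranks were computed in Python 3.11.15 with numpy 2.4.6, pandas 2.3.3 and matplotlib 3.10.9, and the code was tested on simulated data. A rank is a percentile of column 9, and a region takes its best peak. Genes, ends and promoters came from RefSeq tables of GRCm38.p6 with 21883 protein-coding genes. Exact two-sided permutation tests compared the 4 libraries, and regions and genes were not used as replicates.

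The classes, gene lists and alternatives were chosen with earlier results of these data known. Named regions are the 8 best-ranked, by the weakest library, and the 4 widest of each class, with the nearest gene. Named list genes are up to 4 per state in list order, and all of the Ets1 locus. A few of these are not reported here but remain within all counts. Genes outside this rule are marked where they appear, or share a region with a named gene. The alternatives changed the overlap, the threshold, the number of peaks, the libraries and the gene-end window. The gene table gives no strand or exons, so both ends were used. The third motif, ACTACAA, was added after the data were seen.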

Additional observations from a re-analysis of the deposited data

Results flagged for a closer look

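The direction of the rank difference differed between the antibodies. The median rank of co-occupied minus alone regions was 14.2 percentile points as the mean of the ETS1 libraries and -10.7 as the mean of the CTCF libraries, with both libraries of each antibody on its own side. The difference between the antibodies was not tested.

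For CTCF the direction also differed by acetylation. The mean difference was 7.50 points for regions under H3K27ac and -10.4 for those outside it, again in both libraries. This difference was not tested either.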

How the results depend on the processing

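Of 63 alternative values, 3 reversed; of the others, 18 moved by over 1.5 times (counts) or over the SD between libraries (ranks), and 42 stayed within that or, for the gene-end and width differences, kept their direction, whatever their size. Counting as alone only regions without a peak in either library of the other antibody left 1415 ETS1-alone regions, with rank differences of 18.4 for ETS1 and -11.9 for CTCF. A limit of 5 on column 9 gave 322 co-occupied, 859 ETS1-alone and 7691 CTCF-alone regions, and an ETS1 rank difference of 4.83. The CTCF difference of 0.725 was reversed in the mean but lay within the SD of 4.40 between the libraries. The width difference of 63.5 bp was reversed too, with the ranges of the antibodies overlapping. Equal numbers of peaks gave 2131, 6165 and 9390 regions, rank differences of 11.7 and -3.98, a gene-end difference of 26.9 points and a width difference of -69.0 bp, and the limit of 5 a gene-end difference of 55.9 points. Leaving out each library in turn gave 7205 to 9700 co-occupied, 2013 to 13719 ETS1-alone and 16808 to 25801 CTCF-alone regions, ETS1 rank differences of 14.6 to 36.4, CTCF ones of -11.1 to -3.92, gene-end differences of 11.7 to 22.8 points and width differences of -23.5 to 7.50 bp, the last reversed without ETS1 library 1. The 13719 ETS1-alone regions came without ETS1 library 1 and 6730 without ETS1 library 2, since 1 library then stands for both. Other causes were not tested. Pairing libraries of the same number (the replicate block) left 17.3 points (exact sign-flip test, p = 0.500) and -8.00 bp (p = 1.00); the numbers are shared by label only. Midpoints within 500 bp and leaving out regions under IgG peaks were chosen after seeing the data and moved no count by over 1.5 times. Depth is unknown for every list.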

Other observations

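The letters ACTACAA, with which the motif of the zinc-finger protein ZNF143 (Zfp143 in mice) begins, were searched in the promoter windows after the data were seen, on both strands. They were in 5.14% of windows with both antibodies, 6.27% with ETS1 alone, 2.12% with CTCF alone and 2.75% with neither, beside 3.60% of all windows. Among windows with 0 to 9 CpG these shares were 3.50%, 10.2%, 3.45% and 3.15%, and with 20 to 29 CpG 5.84%, 4.56%, 1.60% and 1.32%. With 10 to 19 CpG they were 8.46%, 9.19%, 2.47% and 2.56%, and with 30 or more 2.02%, 2.63%, 1.36% and 1.11%. The gaps between CTCF alone and neither were small in every band. ETS1 alone was above both in every band except that of 20 to 29 CpG. By the rank of the ETS1 region, in the weaker of its libraries, the share was 3.28% of 579 windows up to rank 25, 3.43% of 1225 up to 50, 4.39% of 2344 up to 75, 6.29% of 1813 up to 90 and 9.67% of 1106 above 90. CCGGAAG went from 18.1% to 25.6% over the same bands, with its highest value, 27.6%, in the band up to 90. By the rank of the CTCF region, ACTACAA was in 3.77%, 5.15%, 5.11%, 2.98% and 2.52% of the same 5 bands, highest between ranks 25 and 75, and AGGNGGC in 44.5%, 44.9%, 47.2%, 51.1% and 54.1%. The windows of the ETS1 bands had median CpG numbers of 22 to 25. Med11, a Mediator subunit, was the only promoter of the 24 best-ranked ones searched, 8 per class, to hold the ACTACAA letters; both antibodies had a region there, at ranks of 99.7 and 99.5 for ETS1 and 98.5 and 97.8 for CTCF. The Zfp143 gene itself had both antibodies at an end, with ETS1 ranks of 48.5 and 82.5 and CTCF ranks of 26.8 and 37.7.

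Regions at gene ends differed in how many lay on a promoter window, chromosome 18 left out. Of the gene-end regions, 77.0% of ETS1 co-occupied, 70.3% of ETS1 alone and 32.2% of CTCF alone overlapped a window. The remaining gene-end regions of CTCF alone lie by a gene's outer end without touching a window of the table.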
